A study of Mus musculus with 4 samples.

Results

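The Toll-like receptor genes Tlr2, Tlr3, Tlr4 and Tlr7, the co-receptor gene Cd14, the adaptor genes Myd88 and Ticam1 and the signalling genes Irak1, Irak4 and Traf6 were followed in mouse retina after inhibition of miR-124-3p. These 10 genes were chosen by name from the 48897 genes of the deposited count table, and each was found there once. The anti-miR-124 group consisted of left-eye retinas given 0.6 nmol of miR-124-3p antagomir, a modified antisense oligonucleotide, in 1 μl of saline inside the eye on postnatal day 3. The NC group consisted of right-eye retinas given the same amount of a scrambled sequence. By the study's methods, the mice received the antagomir in the left eye and the control in the right eye. The main test used no pairing of eyes. Every animal was C57BL/6 (C57BL/6J in the study's methods) with a wild-type genotype, and retinas of at least 2 litters were mixed for each group and taken on postnatal day 9. There were 2 RNA-Seq libraries per group, and a left-eye and a right-eye library that share a number in the table are called pair A or pair B here. The libraries are called NC-A and anti-A (the anti-miR-124 library) for pair A and NC-B and anti-B for pair B. Since each treatment was given to 1 side, eye and treatment cannot be told apart. The p-values measure the spread between these pooled libraries, which may be partly technical.

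Toll-like receptors recognize conserved microbial molecules and molecules released from damaged cells. Most of them signal through the adaptor MyD88, which brings together the kinases IRAK4 and IRAK1 and the ubiquitin ligase TRAF6 and leads to activation of NF-kappa B, whereas TLR3 signals through TRIF, the product of Ticam1, and TLR4 uses both routes. In the retina and brain, microglia are the best known carriers of these receptors, while the downstream adaptors and kinases are made by many cell types, since receptors of the interleukin-1 family share them.

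Tlr2, Tlr4, Tlr7 and Cd14 were the members with the larger differences, and almost the whole difference was in pair B. The receptor Tlr3 differed by less and was close to the adaptor Ticam1. Tlr2, Tlr4, Tlr7 and Cd14 together had 3.84 TPM in NC-A and 4.52 TPM in anti-A. In pair B the same sum was 3.45 TPM in NC-B and 15.9 TPM in anti-B. The sum over the 4 receptors without Cd14 was 5.56 and 6.30 TPM in pair A and 5.01 and 13.6 TPM in pair B. Myd88, Ticam1, Irak1, Irak4 and Traf6 together had 74.6 and 75.9 TPM in pair A and 75.2 and 86.0 TPM in pair B. The TPM values of NC-A are lowered by its lens transcripts, which are described below. In whole retina, more cells of a type and more RNA per cell cannot be told apart. TPM is a transcript level scaled for gene length and library total, so that it can be compared between genes.

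None of the 10 genes passed the test, for which Cd14 had too few counts. By edgeR's quasi-likelihood test (Benjamini-Hochberg adjustment), 0 of the 9 members past the filter on low counts had an adjusted p under 0.05, and the share called among all 17766 tested genes was also 0%. The smallest adjusted p of any gene was 0.487, and 36 genes passed with DESeq2, none of them a member. At an unadjusted p under 0.05, 1 member was higher in the anti-miR-124 group and 0 were lower, against 2.23% higher and 1.68% lower among all tested genes. In 5 of the 9 tested members, both anti-miR-124 libraries were above both NC libraries, and in 0 both were below, where this held for 16.5% and 16.8% of all tested genes. The median log2 fold change was 0.29 for the 9 tested members and 0.0007 for all tested genes.

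The libraries held between 16317239 and 18726963 counts. Crx, a transcription factor gene that marks photoreceptors, was abundant in every library, with 25910 to 30765 counts. Library NC-A stood apart by its lens transcripts. Its summed TPM of 21 lens genes was 65379, against 132 to 186 in the other libraries, and its count of Cryaa, a lens crystallin, was 94776 against 148 to 357. With the lens genes left out, the median log2 fold change of the tested members was 0.30, so its lens transcripts moved that median by little.

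**Figure D1:**
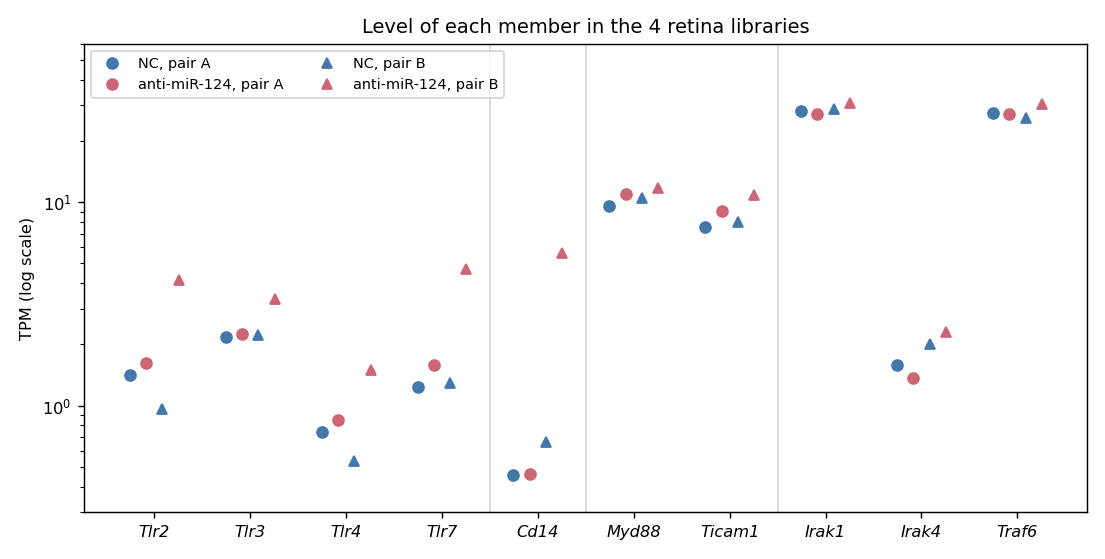
TPM of each of the 10 genes (log axis) in the NC (blue) and anti-miR-124 (red) libraries of pair A (circles) and pair B (triangles), 1 point per library and no error bar, with lines between receptors, co-receptor, adaptors and kinases with Traf6. Library anti-B has the highest level of every gene, and the distance to the other libraries is large for Tlr2, Tlr4, Tlr7 and Cd14 and small for Irak1 and Traf6.

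A few short stretches of sequence before the transcription starts are shown, since several of these genes are known to be induced through NF-kappa B or interferon. Start regions from RefSeq (GRCm38.p6) were used for 7 of the 10 members. Those of Tlr4, Tlr7 and Cd14 were not searched. The 250 bases before each start were searched on both strands for the NF-kappa B consensus of 10 bases, for the PU.1 word GAGGAAGT and for an interferon response word consisting of GAAA, any 2 bases and GAAA. The 4 members with a match are given 5′ to 3′ on the strand of the gene, with the match in capitals and bases counted back from the start.
Tlr2: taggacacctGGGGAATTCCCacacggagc
Tlr3: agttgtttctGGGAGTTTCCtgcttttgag
Irak1: agggcggcgcGGGACGCCCCcgtgtggc
Myd88: gagcttctcgGAAAGCGAAAgaaggagggg
The first 3 match the NF-kappa B consensus and Myd88 matches the interferon response word. The capitals of Tlr2 hold a pair of overlapping matches that begin 173 bases before the start, in chr3:83841762-83841791 on the minus strand, outside the GENCODE M21 transcripts but within the gene span of the deposited table. Those of Tlr3 begin 211 bases before the start, in chr8:45410572-45410601 on the minus strand, and lie in an exon of a longer GENCODE transcript. Those of Irak1 begin 18 bases before 1 of its starts, in chrX:74023922-74023949 on the minus strand, outside the gene. Those of Myd88 begin 40 bases before the start, in chr9:119340039-119340068 on the minus strand, in an intron of a longer GENCODE transcript. Of 32851 such start regions of all genes, 7.25% held the NF-kappa B consensus, 2.44% the PU.1 word and 2.98% the interferon response word. None of the 7 members' regions held the PU.1 word. These are matches of letters, and binding was not measured.

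Among the receptors, Tlr2, Tlr4 and Tlr7 were higher in both anti-miR-124 libraries than in both NC libraries, while Tlr3 overlapped. Tlr2, a receptor for bacterial lipoproteins (chr3:83836272-83841824, GRCm38), had 23 counts in NC-A, 26 in anti-A, 16 in NC-B and 72 in anti-B. In the same order these correspond to 1.41, 1.62, 0.959 and 4.12 TPM. Library anti-B was high and the other libraries lay close together, although the groups did not overlap. The ratio of anti-miR-124 to NC in pair A was 1.07-fold (95% interval from counting error alone, 0.585 to 1.96), and in pair B it was 4.31-fold (2.48 to 7.94). The log2 fold change of Tlr2 over both pairs was 1.22 ± 0.52 (SE, unadjusted p = 0.053, adjusted p = 0.989 by edgeR's quasi-likelihood test).

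Tlr4, the receptor for bacterial lipopolysaccharide (chr4:66827551-66846581), had 31 counts in NC-A, 35 in anti-A, 23 in NC-B and 67 in anti-B. Its level was 0.740, 0.85, 0.537 and 1.49 TPM in the same order. The groups did not overlap, but within pair A the difference was smaller than the counting error. The pair B ratio of Tlr4 was 2.79-fold (1.71 to 4.70), and the log2 fold change was 0.82 ± 0.39 (SE, adjusted p = 0.989 by edgeR's quasi-likelihood test).

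Tlr7, a receptor for single-stranded RNA in endosomes (chrX:167304926-167330574), had 26 counts in NC-A, 33 in anti-A, 28 in NC-B and 106 in anti-B. The levels were 1.23, 1.59, 1.29 and 4.68 TPM, so both NC libraries were nearly the same and both anti-miR-124 libraries were above them. The ratio of Tlr7 was 1.20-fold in pair A (0.695 to 2.08) and 3.63-fold in pair B (2.37 to 5.71). Tlr7 was the 1 member with an unadjusted p under 0.05, with a log2 fold change of 1.26 ± 0.52 (SE, unadjusted p = 0.047, adjusted p = 0.989 by edgeR's quasi-likelihood test). It passed that test with no filter on low counts (adjusted p = 0.0178) and without library anti-A (adjusted p = 0.0192), but not in the other fits, where its adjusted p reached 1.00.

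Tlr3, a receptor for double-stranded RNA (chr8:45395665-45411949), was the most abundant of these receptors in the NC libraries. It had 70 and 71 counts in pair A and 73 and 115 in pair B, or 2.18, 2.24, 2.22 and 3.34 TPM. NC-A, anti-A and NC-B were nearly equal and anti-B was higher, and on the scale of the test the groups overlapped. The pair B ratio of Tlr3 was 1.51-fold (1.12 to 2.05), below those of the other receptors, and the log2 fold change was 0.29 ± 0.27 (SE, adjusted p = 0.989 by edgeR's quasi-likelihood test). An antisense gene that overlaps Tlr3 had 0 counts in every library.

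Cd14, the co-receptor that hands lipopolysaccharide to TLR4 (chr18:36725064-36726815), had the highest ratio among the members and rested on few counts. It had 4 and 4 counts in pair A and 6 and 53 in pair B, or 0.454, 0.461, 0.665 and 5.61 TPM. A single library, anti-B, was high, and the other anti-miR-124 library was level with the NC libraries, so the groups overlapped. The pair B ratio was 8.46-fold (3.64 to 24.1), and the pair A ratio of 0.943-fold had an interval from 0.176 to 5.07. Cd14 did not pass the filter and has no adjusted p in the test. With no filter, its log2 fold change was 2.38 with an adjusted p of 8.33e-04 by edgeR's quasi-likelihood test. With no filter it also passed that test under 3 other normalizations (adjusted p from 8.37e-04 to 8.84e-04) and with the lens genes left out (8.30e-04). Its adjusted p by the same test was 0.983 with a minimum mean of 10 counts and 0.974 with a replicate block and no filter. With DESeq2 and no filter it was 1.00. With 1 library left out and no filter, the log2 fold change was 2.19 without NC-A, 3.23 without anti-A, 2.61 without NC-B and -0.30 without anti-B.

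These receptor values depended on library anti-B. Without it, the log2 fold change was 0.41 for Tlr2, 0.37 for Tlr4, 0.29 for Tlr7, -0.01 for Tlr3 and -0.30 for Cd14, and the median of the tested members was 0.09. Without library anti-A, it was 1.73 for Tlr2, 1.16 for Tlr4, 1.82 for Tlr7 and 0.54 for Tlr3, and the median was 0.42. Without library NC-B, Tlr4 had 0.54 and Tlr2 0.90.

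**Figure D2:**
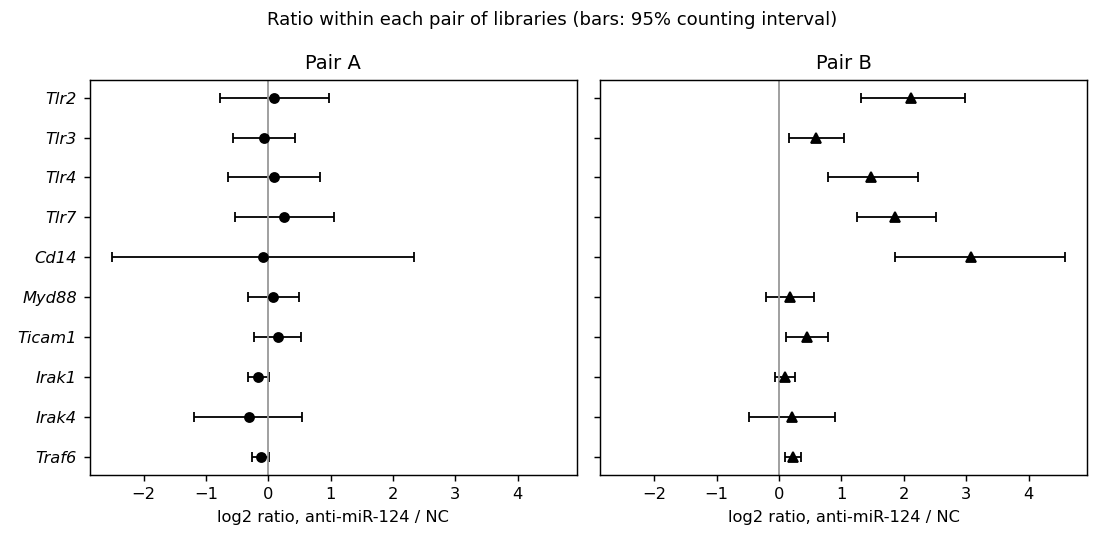
Log2 ratio of anti-miR-124 to NC for each of the 10 genes within pair A (left) and pair B (right), from counts scaled by effective library size, with bars that give the 95% interval of counting error. All 10 intervals hold 0 in pair A, and 7 of 10 lie above 0 in pair B, those of Myd88, Irak1 and Irak4 being the exceptions.

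The adaptors were higher in both pairs by small amounts. Myd88, the adaptor of most Toll-like receptors (chr9:119335988-119340040), had 97 and 109 counts in pair A and 108 and 127 in pair B, or 9.60, 11.0, 10.4 and 11.7 TPM. Both anti-miR-124 libraries were just above both NC libraries. The pair ratios of Myd88 were 1.06-fold (0.799 to 1.41) and 1.13-fold (0.865 to 1.47), and the log2 fold change was 0.13 ± 0.19 (SE, adjusted p = 0.989 by edgeR's quasi-likelihood test).

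Ticam1, which encodes the adaptor TRIF (chr17:56269462-56276767), had 114 and 134 counts in pair A and 123 and 175 in pair B, or 7.59, 9.07, 8.0 and 10.9 TPM. The groups did not overlap, and library anti-B was again the highest. Its ratio was 1.11-fold in pair A (0.857 to 1.44) and 1.36-fold in pair B (1.08 to 1.73), with a log2 fold change of 0.30 ± 0.18 (SE, adjusted p = 0.989 by edgeR's quasi-likelihood test).

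The kinases and Traf6 differed in direction between the pairs, being lower in pair A and higher in pair B, and their groups overlapped. Irak1, a kinase recruited by IRAK4 (chrX:74013914-74023921), had 592 and 562 counts in pair A and 617 and 688 in pair B, or 28.2, 27.2, 28.7 and 30.6 TPM. Its levels stayed within a narrow band in the 4 libraries. The log2 fold change of Irak1 was -0.03 ± 0.09 (SE, adjusted p = 0.989 by edgeR's quasi-likelihood test), and a pair of microRNA genes inside Irak1, Mir5132 and Mir718, had 0 counts in every library.

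Traf6, the ubiquitin ligase downstream of the IRAK kinases (chr2:101678420-101701668), was the most heavily counted member, with 906 and 882 counts in pair A and 877 and 1072 in pair B, or 27.6, 27.3, 26.1 and 30.5 TPM. Library anti-B was highest and the NC library of the same pair lowest. The pair B ratio of Traf6 was 1.17-fold (1.07 to 1.28) and the pair A ratio 0.918-fold (0.836 to 1.01), with a log2 fold change of 0.05 ± 0.10 (SE, adjusted p = 0.989 by edgeR's quasi-likelihood test). Irak4, the kinase that binds MyD88 first (chr15:94543613-94568317), had 27 and 23 counts in pair A and 35 and 42 in pair B, or 1.58, 1.37, 2.0 and 2.29 TPM. Both libraries of pair B were above both of pair A, whichever the treatment. The log2 fold change of Irak4 was -0.01 ± 0.36 (SE, adjusted p = 1.00 by edgeR's quasi-likelihood test).

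In TPM in the NC libraries, Irak1 (28.2 and 28.7) stood just above Traf6 (26.1 and 27.6), followed by Myd88 (9.60 and 10.4) and Ticam1 (7.59 and 8.0), none of which overlapped its neighbour. Tlr3 and Irak4 came next, with Irak4 at 1.58 and 2.0 TPM. The levels of Tlr7 (1.23 and 1.29) lay within those of Tlr2 (0.959 and 1.41), and the levels of Cd14 overlapped those of Tlr4. The receptors other than Tlr3 were therefore near or below 1.5 TPM in control retina, with at most 31 counts each, while the shared signalling genes Irak1 and Traf6 had at least 592.

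The other Toll-like receptor genes had low counts, and several were high in the same library as the members. Of 9 further genes of this kind, 5 were tested, and 1 was higher in both pairs. That gene was Tlr1, the partner of TLR2, with 9 and 15 counts in pair A and 6 and 23 in pair B and a log2 fold change of 1.24 ± 0.49 (SE, adjusted p = 0.989 by edgeR's quasi-likelihood test). Tlr13, a receptor for bacterial ribosomal RNA, had 17 and 16 counts in pair A and 16 and 129 in pair B. Tlr8 had 2 and 2 counts in pair A and 0 and 37 in pair B, and Tlr11 had 0 counts in every library. Tlr9, a receptor for unmethylated DNA, had 16 and 6 counts in pair A and 10 and 18 in pair B, and its log2 fold change was -0.21 ± 0.60 (SE). That of Tlr12 was -0.24 ± 0.56 (SE). The median log2 ratio of the 5 tested genes was -0.23 in pair A and 1.88 in pair B. Apart from Tlr1, these genes were named after their values were seen, as were Unc93b1, Cd36, Ly96, Lbp, Dok3, Tnf, Ccl2, Ccl3, Ccl4, Il1a, Il10, Il12b, Sod2, Ifit2, Ifnb1, Gfap and Vim. The same holds for Cxcl1, Il1b and Il6.

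Of 9 genes for partners and chaperones of the receptors, 7 were tested and none passed. In both pairs 1 (14.3%) was higher and 1 (14.3%) lower, against 22.8% and 24.0% of all tested genes. Unc93b1, which carries the nucleic acid receptors to endosomes, had 106 and 97 counts in pair A and 67 and 223 in pair B. Cd36, a scavenger receptor that works with TLR2, had 36 and 26 counts in pair A and 17 and 360 in pair B. Both had their highest count in library anti-B and were lower in anti-miR-124 than in NC in pair A. Ly96, which encodes the TLR4 partner MD-2, had 2 and 10 counts in pair A and 10 and 10 in pair B, and Lbp, a lipopolysaccharide binding protein, had 7 and 3 and then 10 and 8, so neither was high in anti-B. Cnpy3, a chaperone of Toll-like receptors, had a log2 fold change of 0.16 ± 0.08 (SE), and Hmgb1, a nuclear protein that can act as a ligand when released, of -0.05 ± 0.07 (SE).

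Downstream of the receptors most differences were small in both pairs. Among 11 other adaptors, IRAK genes and their regulators, 9 were tested, and 6 (66.7%) were higher in both pairs and 0 lower in both. The shares of all tested genes were 22.8% and 24.0%. In 2 of the 9, both anti-miR-124 libraries were above both NC libraries, which held for 16.5% of all tested genes. The list's median log2 fold change was 0.11. In this list Ticam2, the bridging adaptor of TLR4, had 0.51 ± 0.73 (SE) from 3 to 19 counts, and Traf3, a ubiquitin ligase of the interferon branch, had 0.07 ± 0.08 (SE). Of 12 genes of the TAK1 and IKK complexes and NF-kappa B, 5 were higher and 3 lower in each of the pairs, and the median was -0.01, ranging from 0.34 ± 0.16 (SE) for the kinase gene Ripk1 to -0.11 ± 0.08 (SE) for the ubiquitin-conjugating enzyme gene Ube2n. Of 7 genes that restrain the pathway, 6 were tested and 2 were higher in both pairs, Tnip1 by 0.12 ± 0.10 (SE) and Rnf216 by 0.06 ± 0.07 (SE) on the log2 scale.

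Among these pathway lists, the highest log2 fold change was in the interferon branch, of which 5 of 5 genes were tested, 2 were higher and 1 lower in both pairs. Irf7, the transcription factor that drives type I interferon genes below TLR7 and is itself induced by interferon, had 15 and 72 counts in pair A and 11 and 213 in pair B. Both anti-miR-124 libraries were far above both NC libraries, and the log2 fold change of Irf7 was 3.34 ± 0.58 (SE, adjusted p = 0.695 by edgeR's quasi-likelihood test). Tbk1, a kinase that activates this branch, had 726 and 669 counts in pair A and 840 and 740 in pair B, with a log2 fold change of -0.22 ± 0.07 (SE, adjusted p = 0.989 by edgeR's quasi-likelihood test). Over these lists together, 44 of 53 genes were tested, 0 passed, and 38.6% were higher and 11.4% lower in both pairs, against 22.8% and 24.0% of all tested genes. Their median log2 fold change was 0.06.

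Known outputs of the pathway ranged from uncounted cytokines to interferon responsive genes with large differences. Of 15 NF-kappa B responsive genes, 4 were tested and 2 were higher in both pairs, where the shares over all tested genes were 22.8% higher and 24.0% lower. Most cytokine genes had few counts. Tnf had 0 and 1 counts in pair A and 0 and 3 in pair B, and Il12b and Il10 had 0 in every library. The chemokine genes Ccl3, Ccl2 and Ccl4 had their highest counts in anti-B. Ccl3 had 6, 5, 4 and 31 counts in NC-A, anti-A, NC-B and anti-B. In the same order Ccl2 had 0, 2, 1 and 13 counts and Ccl4 had 2, 3, 2 and 9. The chemokine gene Cxcl1 had 1 count in NC-A and 0 in the others. Il6 (0, 3, 0 and 0) and Il1b (0, 4, 2 and 1) were highest in anti-A. Il1a had 18 to 26 counts, and Sod2, a mitochondrial superoxide dismutase gene, had 1988 to 2362 counts and a log2 fold change of 0.01 ± 0.07 (SE). Icam1, an adhesion molecule, had 28 and 33 counts in pair A and 8 and 43 in pair B, with a log2 fold change of 0.97 ± 0.58 (SE), and Nos2, inducible nitric oxide synthase, had 0.27 ± 0.40 (SE). Of 10 interferon responsive genes, 6 were tested and 5 (83.3%) were higher in both pairs, and the list's median log2 fold change was 2.79. Ifit1 had 3 and 78 counts in pair A and 3 and 174 in pair B, and Ifit3 had 20 and 76 counts and 14 and 141 counts. The log2 fold change was 5.24 ± 0.69 for Ifit1 (SE, adjusted p = 0.487 by edgeR's quasi-likelihood test) and 2.57 ± 0.40 for Ifit3 (SE, adjusted p = 0.637 by the same test). Ifit2, the exception, had 209 and 348 counts in pair A and 328 and 314 in pair B. Ifnb1, the interferon beta gene, had 0 counts in every library. The median log2 ratio of the 6 tested genes was 2.20 in pair A and 3.35 in pair B, beside 0.09 and 1.67 for the 4 receptors, a contrast that was not tested.

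**Figure D3:**
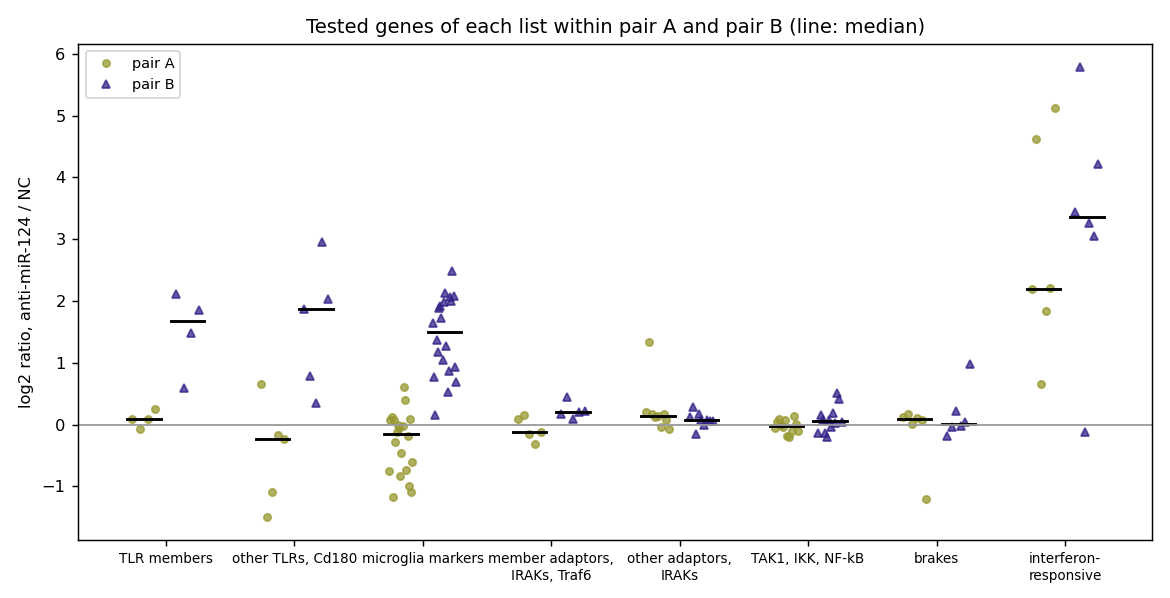
Log2 ratio of anti-miR-124 to NC for the tested genes of each list (1 point per gene) within pair A (circles) and pair B (triangles), with black lines at the medians. Most receptors and microglia markers lie near or below 0 in pair A and above 1 in pair B. The medians of the adaptor, TAK1 and IKK and brake lists lie near 0 in both pairs, with single genes such as Ticam2 and Dok3 away from it, and 5 of the 6 interferon responsive genes lie above 1.5 in both.

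Microglia markers were high in the same library as the receptors. The summed TPM of 20 microglia and macrophage genes, none of them a member, was 313 in NC-A, 297 in anti-A, 247 in NC-B and 751 in anti-B. Their median log2 ratio was -0.15 in pair A and 1.5 in pair B. All 20 were tested, 7 (35.0%) were higher and 0 lower in both pairs, against 22.8% and 24.0% of all tested genes, and their median log2 fold change was 0.68, or 0.10 without library anti-B. The part of microglia in the receptor values was not tested. Csf1r, a growth factor receptor of these cells, had 373 and 415 counts in pair A and 322 and 762 in pair B, and C1qb, a complement gene, had 174, 169, 123 and 484 in the same order. Cx3cr1, the fractalkine receptor, had 251, 281, 272 and 487 counts and Tmem119 had 17, 8, 13 and 35. P2ry12, a receptor of resting microglia, had 77, 89, 72 and 84 counts and thus little difference in either pair.

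Of 12 monocyte and neutrophil markers, 5 had no count in any library and 1 was tested, and the summed TPM was 3.66 to 3.98 in 3 libraries and 4.75 in library anti-B. Ccr2, a receptor of inflammatory monocytes, had 0 counts in both libraries of pair A and 2 and 25 in pair B, and S100a8, a neutrophil gene, had at most 4. Of the 9 Müller glia and astrocyte markers, 9 were tested. In both pairs 1 (11.1%) was higher and 1 (11.1%) lower, against 22.8% and 24.0% of all tested genes. Their summed TPM was 1933 and 1810 in pair A and 1822 and 2283 in pair B. Gfap, the filament gene of reactive glia, had 1496 and 720 counts in pair A and 631 and 3764 in pair B, so it too was highest in anti-B, with a log2 ratio of -1.14 in pair A and 2.51 in pair B. Vim, another filament gene, had log2 ratios of -0.52 and 0.87, and the part of reactive glia in the receptor values was not tested. The sum over 11 retinal neuron markers was 6096 to 6877 TPM. Endothelium and pericyte markers summed to 344 to 375 TPM, and those of the pigment epithelium to 43.8 to 98.5 TPM.

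The levels were also set against the microglia sum, which was itself highest in anti-B. Tlr2 was 0.451% and 0.546% of the summed microglia TPM in NC-A and anti-A and 0.388% and 0.549% in NC-B and anti-B. Tlr4 was 0.237%, 0.286%, 0.217% and 0.199% in the same order, and Tlr7 was 0.393%, 0.534%, 0.523% and 0.623%. On this scale anti-B, the library with the high receptor counts, was close to the others for Tlr2 and Tlr4 and somewhat above them for Tlr7. Cd14 was 0.145%, 0.155% and 0.269% in the first 3 libraries and 0.747% in library anti-B, where it stayed apart. Traf6 was 8.82%, 9.19% and 10.6% in the first 3 and 4.06% in that library, and Irak1 was 9.02%, 9.16%, 11.6% and 4.07%. Their TPM was nearly constant, so the larger microglia sum alone sets this lower share. Tlr3 was 0.696%, 0.755%, 0.897% and 0.444%. These shares describe 4 libraries, were not tested and do not show which cells the transcripts came from.

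The genes with the most similar profiles were also listed, from the same 4 values per gene, so that they are not separate evidence. For each tested member, the nearest of 128 other tested genes of these lists was found by the distance between log2 CPM values, each centred on the gene's mean. The nearest gene was C1qb for Tlr2 (distance 0.167), Csf1r for Tlr4 (0.183) and Ctss, a lysosomal protease gene, for Tlr7 (0.232), all of them microglia markers. For Tlr3 it was Aqp4, a water channel of Müller glia and astrocytes (0.120). The nearest gene was Nrl for Myd88 (0.031), Ripk1 for Ticam1 (0.054), Ecsit for Irak1 (0.077), Irf3 for Irak4 (0.274) and Tnip1 for Traf6 (0.101), none of them a microglia marker. Genes that vary little, such as Myd88, are close to any other gene that varies little, and 4 points per gene give no test.

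**Figure D4:**
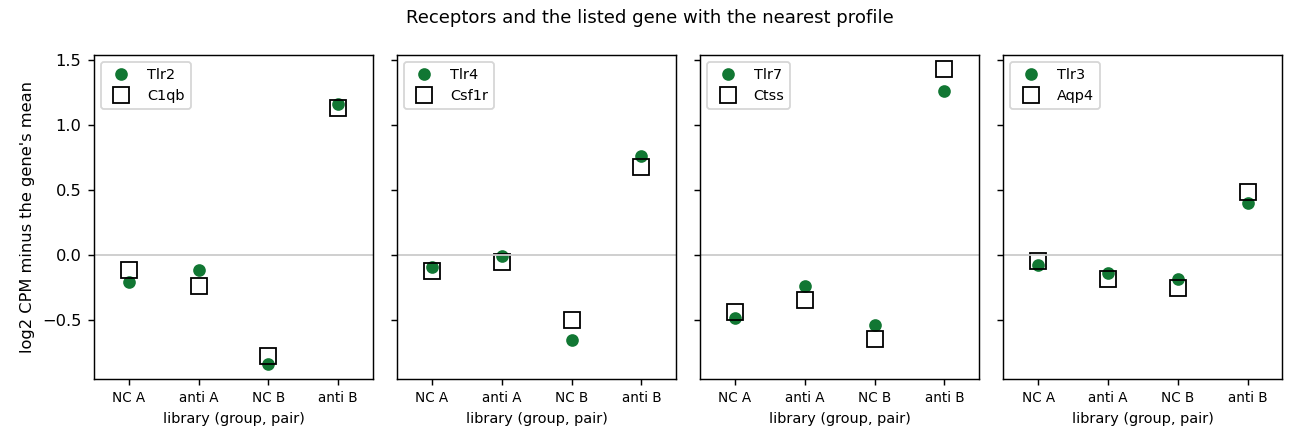
Log2 CPM minus the gene's mean over the 4 libraries for Tlr2, Tlr4, Tlr7 and Tlr3 (filled green circles) and for the listed gene nearest to each (open squares), by library of each group and pair, with no error bar. The points of Tlr2 and C1qb, Tlr4 and Csf1r, and Tlr7 and Ctss nearly coincide, from 1.16 for Tlr2 in library anti-B to -0.84 in library NC-B, and Tlr3 spans a smaller range alongside Aqp4.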

How the data were processed

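The authors deposited a table of raw counts of reads for each gene, not normalized, along with the length of each gene in bases ("other" value, used for TPM). It also holds 4 columns of RPKM, which were not used. The submitters' processing notes name HISAT2 and mm9, but of 36834 symbols matched to the GRCm38 annotation 99.83% overlapped it in position, so positions are given as GRCm38. The counting tool and whether it used strand are not given in the sources used here. Columns were assigned to groups by the eye they name. TPM was computed from counts and lengths.

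Genes were tested with edgeR 4.0.16 in R 4.3.3 (quasi-likelihood test, TMM, filterByExpr, no covariate, two-sided, Benjamini-Hochberg adjustment, threshold 0.05), checked on simulated counts. Within a pair there is 1 library per group, so the log2 ratio of counts per effective library size is given with an exact 95% Clopper-Pearson interval, which covers counting error only. With 2 libraries against 2, an exact permutation test cannot give a p below 0.333 and was not used. Profiles used log2 of CPM plus 0.1. DESeq2 1.42.0, other normalizations and filters, a replicate block and leaving out each library were alternatives. Python 3.11.15, numpy 2.4.6, pandas 2.3.3 and scipy 1.17.1 were used.

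The members, gene lists and tests were chosen with earlier results of these data known. All members are named. From each pathway or output list, the genes with the largest and smallest log2 fold change of those with the same sign in both pairs are named, and from the marker lists fixed genes, of which 1 is not reported here. The series' design text calls the animals 6-day old, while the sample labels say postnatal day 9.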

Additional observations from a re-analysis of the deposited data

How the results depend on the processing

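The number of genes with an adjusted p under 0.05, 0 in the report, was 379 with no filter on low counts, 36 with DESeq2 and 0 to 256 when 1 library was left out (256 without library anti-A, 57 without library NC-B, 12 without library anti-B and 0 without library NC-A). Beyond the fewer samples or more genes that these fits hold, the cause was not tested. The labels do not say that a shared number marks a shared animal or day, and the correlation of same-numbered deviations was -0.16. A replicate block gave 0 genes, with 376 at an unadjusted p under 0.05 in place of 694, and with the numbers crossed, an alternative added after seeing the data, it gave 160.

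Of 130 values of single members under 13 alternatives with a test, 116 kept their direction and their side of the threshold. For Cd14 the reference was its fit with no filter, which passed, so keeping its side meant passing. Its alternative with no filter was that same fit and could not differ. For the other members keeping their side meant not passing. Direction changed in leave-one-out fits, where log2 fold changes ranged from -0.0068 to 0.54 for Tlr3, -0.30 to 3.23 for Cd14, -0.10 to 0.042 for Irak1, -0.42 to 0.30 for Irak4 and -0.053 to 0.16 for Traf6. The adjusted p of Cd14 was 8.33e-04 by edgeR's quasi-likelihood test with no filter, and ran from 1.61e-07 (without library anti-A) to 1.00 (DESeq2) over the alternatives. For Irak1 the mean log2 TPM ratio of both pairs was 0.020. The receptors and Cd14 had 4 to 115 counts per library. Their pair A intervals include no difference and reach 1.96-fold for Tlr2, 2.08-fold for Tlr7 and 5.07-fold for Cd14. Those of the more heavily counted Irak1 (0.797 to 1.01) and Traf6 (0.836 to 1.01) include no difference too. Whether low counts hide a difference of the receptors in pair A was not tested.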
